A study of Mus musculus with 21 samples.

Results

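A set of imprinted genes known from quiescent stem cells was followed over 21 mouse arrays. Control LSK is the fraction here that holds stem cells. By their brightest probe sets, only Grb10, Meg3 and Ndn had group means there above a background range. That range comes from genes that blood progenitors are not known to express. The set was named by symbol: the maternally expressed genes H19, Cdkn1c, Meg3 and Grb10, and the paternally expressed genes Igf2, Dlk1, Peg3, Ndn, Mest and Plagl1. Of these 10 genes, 9 had at least 1 probe set annotated to them alone, of 18194 genes measured in all. H19 shared its probe set's annotation with another gene and is not analysed here. The other 9 genes had 36 probe sets, from 1 for Cdkn1c and for Mest to 11 for Meg3. Where a gene had several, the brightest over all arrays (mean log2 intensity) stands for it, and the others are described beside it. A gene with many probe sets thus had more chances to lie above the background range.

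The arrays carried RNA of bone marrow cells sorted from mice of strain C57/BL6. LSK cells are lineage-negative, Sca-1-positive and Kit-positive, a fraction that holds stem cells and multipotent progenitors. Quiescent stem cells are only some of them and were not sorted apart. GMP are granulocyte-macrophage progenitors, which lie further along the myeloid path. Control mice were Dot1 wt/wt x Mx-Cre, with 6 arrays of LSK (LSK-Control) and 5 of GMP (GMP-Control). The other mice were Dot1l fl/fl x Mx-Cre, labelled Dot1l -/-, with 6 arrays of LSK (LSK-Dot) and 4 of GMP (GMP-Dot). Dot1l encodes the lysine methyltransferase of the histone H3 core. All 4 groups carried the Cre transgene, and the series text describes PIPC injection for both genotypes. Mx-Cre is switched on by interferon, which PIPC induces, and it also acts outside blood cells. The labels state neither ages nor the time from injection to sorting. The study asked how loss of Dot1l alters expression in each cell type.

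An imprinted gene is transcribed from the copy inherited from 1 parent, a choice set by DNA methylation laid down in the germ line. Many such genes limit or promote growth of the embryo, and in adult bone marrow several of them are best known from long-term stem cells, where Cdkn1c holds cells out of cycle. The arrays measure the summed RNA of both copies and do not tell the parental alleles apart.

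The sequence upstream of the start was taken from RefSeq (build GRCm38.p6) for the genes the results turn on, since methylated imprint control regions lie at or close to several of these starts. The table held 15 starts of 8 of the genes. TGCCGC, the hexamer recognised in methylated form by ZFP57, the zinc finger protein that keeps imprints, was searched on both strands of the 250 bases before each start. It was present before 4 starts, of 3 genes (Mest, Plagl1 and Meg3), and before 8.676% of all 32851 starts in the table. The windows of 2 of these starts, both of Mest, overlap and hold the same matches. GGNGGCAG, part of the site of the insulator protein CTCF, was present before 1 start, of Igf2, and before 9.933% of all starts. The windows shown are Plagl1 at chr10:13090582-13090831 (plus strand), Mest at chr6:30737800-30738049 (plus strand), Meg3 at chr12:109540746-109540995 (plus strand), Grb10 at chr11:12037421-12037670 (minus strand) and Ndn at chr7:62348027-62348276 (plus strand). Each runs 5′ to 3′ on the strand of its gene and ends at the base before the annotated start. Capitals mark TGCCGC, which here lies on the opposite strand and so reads GCGGCA.
Plagl1: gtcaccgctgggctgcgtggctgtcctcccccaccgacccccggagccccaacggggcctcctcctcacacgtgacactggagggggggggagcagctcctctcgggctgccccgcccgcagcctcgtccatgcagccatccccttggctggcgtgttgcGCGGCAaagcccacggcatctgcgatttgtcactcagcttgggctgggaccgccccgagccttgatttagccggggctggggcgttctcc
Mest: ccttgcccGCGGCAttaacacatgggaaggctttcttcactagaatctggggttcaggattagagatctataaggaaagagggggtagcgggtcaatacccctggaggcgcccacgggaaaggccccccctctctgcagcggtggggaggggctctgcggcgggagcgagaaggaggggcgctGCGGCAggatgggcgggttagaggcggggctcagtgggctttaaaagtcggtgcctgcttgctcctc
Meg3: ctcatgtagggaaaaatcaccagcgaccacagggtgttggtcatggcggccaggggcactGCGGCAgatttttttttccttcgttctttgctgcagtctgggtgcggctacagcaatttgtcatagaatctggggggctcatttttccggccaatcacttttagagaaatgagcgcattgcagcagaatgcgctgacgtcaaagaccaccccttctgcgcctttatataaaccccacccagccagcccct
Grb10: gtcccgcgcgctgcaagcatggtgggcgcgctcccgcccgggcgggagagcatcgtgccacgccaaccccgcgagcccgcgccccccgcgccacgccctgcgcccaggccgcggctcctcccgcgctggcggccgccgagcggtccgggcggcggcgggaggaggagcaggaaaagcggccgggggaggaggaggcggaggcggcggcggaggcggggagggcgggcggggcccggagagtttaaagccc
Ndn: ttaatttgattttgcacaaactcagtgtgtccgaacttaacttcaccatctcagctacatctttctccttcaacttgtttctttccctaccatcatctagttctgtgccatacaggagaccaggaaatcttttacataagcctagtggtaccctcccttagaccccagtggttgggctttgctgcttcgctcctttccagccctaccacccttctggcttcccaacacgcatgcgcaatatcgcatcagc
The Grb10 window holds 40 CpG, more than 98.694% of all starts, and the Plagl1 window holds 19. Mest has 14 CpG and 2 copies of the hexamer, Meg3 has 10 CpG and Ndn has 5. The median was 8.0 over the 15 starts and 6.0 over all starts. These are matches of letters, and no binding or methylation was measured.

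The upper quartile of the log2 values lay between 6.18 and 6.78 over the 21 arrays. Dot1l had 2 probe sets, and neither was called in either cell type. The brighter of them had a mean of 6.48 in LSK-Control, 6.38 in LSK-Dot, 6.74 in GMP-Control and 6.22 in GMP-Dot, so the labels are not checked by it. The part of Dot1l that these probes cover is not known here. Between control arrays, 9 of 13 LSK markers were called lower in GMP and 8 of 10 GMP markers were called higher, each way as sorted. The LSK-Dot array K1272 correlated with the other arrays of its group at a Spearman coefficient of only 0.63 to 0.67 over genes and had raised values among dim genes. The GMP-Dot arrays K1190 and K1272 correlated with each other at 0.988, against 0.881 and 0.895 between K1190 and the rest of the group. Nothing says that arrays are separate animals, so the spread behind each p-value may be technical. All tests are limma's moderated test, adjusted by Benjamini-Hochberg over all genes or all probe sets, and called means an adjusted p under 0.05. Fold changes are log2 differences of group means, with the standard error after the sign ±.

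A background range was taken from 132 genes of sensory receptor, hair keratin-associated and defensin families, which blood progenitors are not known to express. Over single arrays its 95th percentile lay between 4.67 and 5.86. By their brightest probe sets, Grb10 and Meg3 were above it on 21 of 21 arrays. The other probe sets of Meg3 were above it on 19 (1439380_x_at) down to 0 arrays, and those of Grb10 on 13 and 6. Plagl1 was above it on 13 arrays, Ndn on 12 and Mest on 11, so the signal of these genes depended on the group and the array. In LSK-Control, Ndn was above it on 4 of 6 arrays. The other probe sets of Ndn were above it on 10 down to 0 of all arrays. Cdkn1c, the kinase inhibitor p57, was above it on 5 arrays, Igf2 on 3, Peg3 on 2 and Dlk1 on 1. By group means, Igf2, Dlk1 and Peg3 were within the background range in all 4 groups. Igf2, the secreted growth factor, had means of 4.57 ± 0.27 (SD, n = 6) in LSK-Control, 4.33 ± 0.83 (n = 6) in LSK-Dot, 4.71 ± 0.14 (n = 5) in GMP-Control and 4.57 ± 0.41 (n = 4) in GMP-Dot. Dlk1, a transmembrane protein of stem and precursor cells, had means of 4.44 ± 0.28, 4.57 ± 0.86, 5.11 ± 0.19 and 4.46 ± 0.48 in the same order. Over the 21 arrays the level of Dlk1 followed the mean of the background genes (Pearson r = 0.90), as did Meg3 (0.86), Peg3 (0.76) and Igf2 (0.69). The arrays share their processing, and these coefficients are a description.

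**Figure D1:**
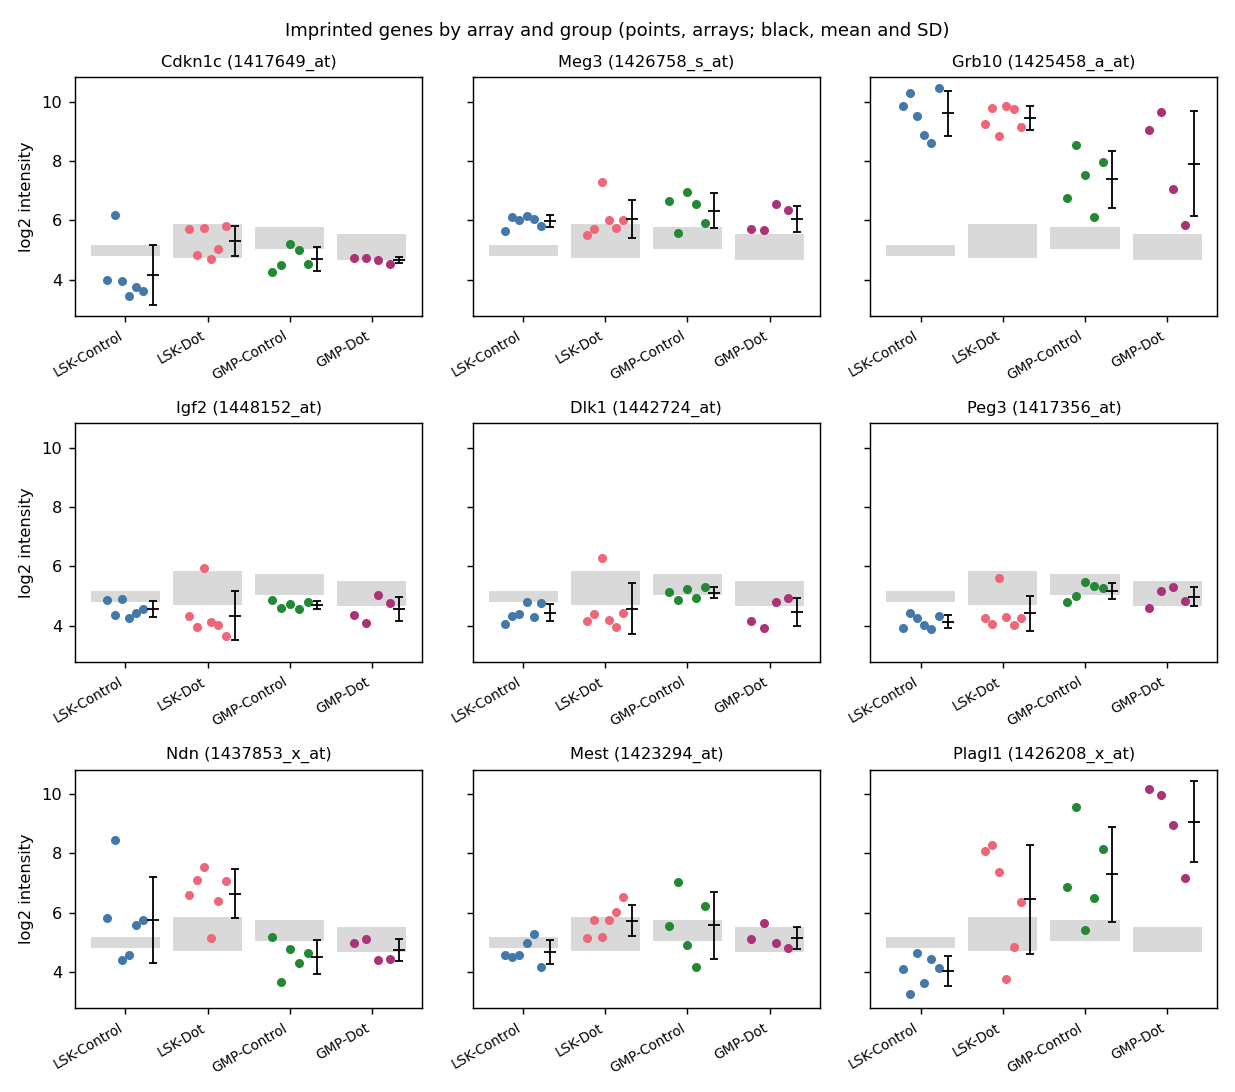
Log2 intensity of the 9 imprinted genes by group, 1 point per array, with the mean and SD in black. The grey band of each group is the range, over its arrays, of the 95th percentile of 132 background genes. Grb10 lies above the grey band of its group on all arrays. Plagl1 lies below it in LSK-Control and above it on 12 of the other 15 arrays, and Igf2, Dlk1 and Peg3 mostly lie in or below it.

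Between control LSK and control GMP, 3 of the 9 genes were called: Grb10 was lower in GMP, and Plagl1 and Peg3 were higher. Over all genes tested, 12.0% were called. The fold change of the median gene in the set was 0.54 on the log2 scale, against 0.29 over all genes. Background genes shifted too, by a median of 0.42 upwards in GMP, with a 95th percentile of 0.82. The arrays of the groups did not overlap for 4 of the 9 genes (Grb10, Plagl1, Peg3 and Dlk1), against 14.7% of all genes. Bulk arrays cannot tell fewer cells that express a gene from less RNA in each cell.

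Grb10 encodes an adaptor that binds insulin and IGF receptors and dampens their signal. It had levels of 6.76, 8.52, 7.52, 6.11 and 7.96 on the 5 GMP-Control arrays. In LSK-Control the lowest value was 8.60, the median 9.68 and the highest 10.46, so no GMP-Control array reached the LSK-Control range. The fold change was -2.23 ± 0.57, with an adjusted p of 0.0170 by limma. The other 2 probe sets of Grb10 were also lower in GMP and neither was called. When the arrays' upper quartile entered the fit, the fold change was -1.19 (adjusted p = 0.294).

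Plagl1 encodes a zinc finger transcription factor that slows the cell cycle and acts on other imprinted genes. In LSK-Control its lowest level was 3.26, its median 4.12 and its highest 4.64, all below the background limit of their arrays. In GMP-Control it was 6.87, 9.57, 5.40, 6.50 and 8.15, a spread of over 4 units with every array above LSK-Control. The fold change was 3.27 ± 0.80 (adjusted p = 0.0136 by limma), from probe set 1426208_x_at, whose suffix marks probes that may also match other transcripts. A second probe set, 1450533_a_at, was also called, at 1.51 ± 0.41 (adjusted p = 0.0295 by limma over all probe sets). It lost its call in 4 of the 11 fits that left out 1 control array. Grb10, Peg3 and the brightest Plagl1 probe set kept theirs in all 11, but these were adjusted over all genes, so the counts are not like for like. The third, 1438588_at, gave 0.12 when it stood for the gene (adjusted p = 0.798), and its correlation with the first over 21 arrays was -0.03.

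Peg3, a zinc finger protein of the paternally expressed group, had GMP-Control levels of 4.81, 5.01, 5.47, 5.35 and 5.27. In LSK-Control it ranged from 3.88 to 4.42 with a median of 4.14, below each GMP value. The fold change was 1.04 ± 0.25 (adjusted p = 0.0121 by limma), and it was 0.60 with the upper quartile as a covariate (adjusted p = 0.181). With the gene's most variable probe set in its place it was 0.36 (adjusted p = 0.441). Of the 5 GMP-Control arrays, 1 was above its own background limit. The gene's probe set 1447732_x_at was also called, at 0.65 ± 0.19 (adjusted p = 0.0379; lost in 9 of 11 fits without 1 control array), with all its levels below that limit. The rise was measured within the range of genes taken as not expressed, which moved the same way.

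The other genes did not pass the test between control cell types with all arrays and the brightest probe sets. Ndn, the growth suppressor necdin, was 5.19, 3.66, 4.78, 4.31 and 4.63 in GMP-Control. In LSK-Control it ranged from 4.39 to 8.44 with a median of 5.67, so the groups overlapped, and the fold change was -1.24 ± 0.55 (adjusted p = 0.123). Ndn was called with the mean of its probe sets (-1.01, adjusted p = 0.0373) and with its most variable one (-2.27, adjusted p = 0.0299), and was -0.71 without LSK-Control K1602. Mest, a paternally expressed protein of the hydrolase fold, was 5.55, 7.03, 4.90, 4.16 and 6.22 in GMP-Control and between 4.17 and 5.29 in LSK-Control (0.89 ± 0.39, adjusted p = 0.120). It was called without GMP-Control K1604 (1.25, adjusted p = 0.0398 by limma) and was 0.53 without GMP-Control K1602. These arrays held its lowest and highest GMP-Control levels, so leaving them out raises and lowers the fold change. Without K1604, 1452 of all genes were called. Cdkn1c was 4.24, 4.49, 5.20, 5.0 and 4.54 in GMP-Control. Its LSK-Control median was 3.85, and 1 array, K1602, reached 6.19 (0.54 ± 0.38, adjusted p = 0.300). Without that array the fold change was 0.94 (adjusted p = 0.0230 by limma), still with no GMP-Control array above its background limit. Leaving out the highest LSK-Control level raises the fold change, and 2079 of all genes were called in that fit. Dlk1 was 0.67 ± 0.32 (adjusted p = 0.152), Meg3 0.37 ± 0.30 (adjusted p = 0.372) and Igf2 0.15 ± 0.31 (adjusted p = 0.737).

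**Figure D2:**
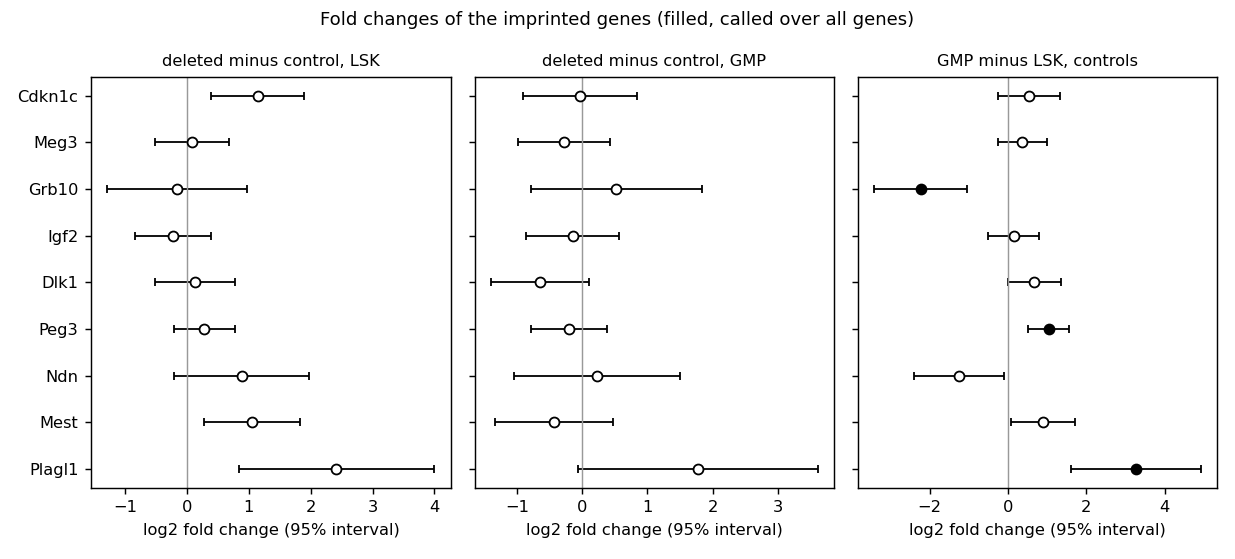
Log2 fold changes of the 9 genes with 95% intervals from the limma fit, for Dot1l-deleted against control LSK, Dot1l-deleted against control GMP, and control GMP against control LSK. Filled points are called over all genes: Grb10 at -2.23, Peg3 at 1.04 and Plagl1 at 3.27, all in the third panel.

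In LSK, loss of Dot1l was followed by no called change in the 9 genes, nor in any of the 18194 genes (0.0% called by limma, with 1021 genes at an unadjusted p under 0.05). Of the 9 genes, 7 were higher and 2 lower in LSK-Dot, with a median of 0.28 against 0.06 over all genes. The groups overlapped for all 9, and 0.33% of all genes did not overlap. The intervals of 3 genes lay above 0 before adjustment: Plagl1, Cdkn1c and Mest.

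Plagl1 had LSK-Dot levels of 8.09, 8.29, 7.36, 3.77, 4.83 and 6.36 on arrays K1091, K1190, K1272, K1359, K1421 and K1422. The first 3 and the last were above every LSK-Control array by more than 1 unit, K1421 was just above them, and K1359 was inside the control range. The fold change was 2.42 ± 0.76 (adjusted p = 0.552 by limma). Its other probe sets gave 0.09 (1450533_a_at) and 0.00 (1438588_at), so the difference was seen by 1 of 3. GMP markers (10 measured) averaged 10.2, 10.1, 8.48, 6.95, 9.75 and 9.82 on the same arrays in the same order, and between 7.32 and 9.22 in LSK-Control. LSK markers (13 measured) averaged 7.93, 6.88, 5.80, 9.11, 8.30 and 7.85, against 8.80 to 9.29 in LSK-Control. The array with the lowest Plagl1, K1359, thus had the lowest GMP and the highest LSK markers of its group. The other arrays did not keep this order. K1421, next lowest for Plagl1 at 4.83, had GMP markers of 9.75, and K1272, with Plagl1 at 7.36, had 8.48. The part of these markers in the Plagl1 levels was not tested.

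Cdkn1c was 5.69, 4.82, 5.74, 4.70, 5.03 and 5.80 on the same LSK-Dot arrays. In LSK-Control 5 arrays lay between 3.43 and 4.0, below all of these, and K1602 was above them at 6.19. The fold change was 1.14 ± 0.36 (adjusted p = 0.561 by limma). Without K1602 it was 1.55 (adjusted p = 0.0301 by limma), and Cdkn1c was then called, in a fit that called 2 of all 18194 genes. K1602 held its highest LSK-Control level, so leaving it out raises the fold change. No conclusion is drawn from that call. Only 3 of 6 LSK-Dot arrays were above their background limit, so the signal was weak even where it was highest. Mest was 5.15, 5.77, 5.19, 5.74, 6.02 and 6.53 in LSK-Dot, and 5.29 at most in LSK-Control (1.05 ± 0.37, adjusted p = 0.642). Grb10 ranged from 8.85 to 9.85 in LSK-Dot, inside its control range (-0.16 ± 0.54, adjusted p = 0.990). The 95% interval of Grb10 ran from -1.29 to 0.96.

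In GMP, none of the 9 genes was called after loss of Dot1l, against 0.143% of all genes, and 6 of the 9 were lower. The set's median was -0.14 and that of all genes -0.20, while background genes shifted by -0.32. No gene of the set had arrays without overlap, against 4.78% of all genes. Plagl1 was 10.2, 9.97, 8.97 and 7.18 on arrays K1190, K1272, K1359 and K1421, and 5.40 to 9.57 in GMP-Control (1.77 ± 0.88, adjusted p = 0.372 by limma). Its other probe sets gave -0.51 (1450533_a_at) and -0.04 (1438588_at). Grb10 was 9.05, 9.67, 7.05 and 5.83 on the same arrays, the first pair above all GMP-Control arrays and the last below them (0.53 ± 0.63, adjusted p = 0.668). Cdkn1c lay between 4.52 and 4.74 and Ndn between 4.41 and 5.11, both inside their control ranges. Mest was 5.11, 5.66, 4.97 and 4.80 (-0.44 ± 0.43, adjusted p = 0.607). Probe set 1433924_at of Peg3 was 5.77, 6.42, 3.85 and 4.35, against 3.66 to 4.11 in GMP-Control (1.15 ± 0.38, adjusted p = 0.230).

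Arrays K1190 and K1272 thus held the highest GMP-Dot levels of Plagl1, of Grb10 and of this Peg3 probe set. The same arrays had 8.21 and 8.91 for Dcn, a matrix proteoglycan imprinted in placenta, where the other 7 GMP arrays lay between 4.93 and 6.06. Igfbp5, which binds IGFs outside cells, was 8.71 and 9.29 there and between 3.55 and 4.48 on the other 7. The stromal collagen Col3a1 was 6.52 and 7.23, against 3.67 to 5.66. The stromal marker Lum was 5.04 and 5.93, against 2.81 to 4.04. Col1a1 was 6.27 and 6.04, against 5.49 to 6.13, and Col1a2 was 4.65 and 4.18, against 4.28 to 6.04. The stromal chemokine Cxcl12 was lower, at 4.26 and 4.50 against 4.63 to 5.60. Dcn and Igfbp5 are not on the list of 18 endothelial and stromal markers. Over that whole list the array means lay between 4.88 and 5.22 in GMP-Dot and between 4.85 and 5.35 in GMP-Control. By group means, 7 and 6 of its genes were above background. K1190 and K1272 had list means of 5.08 and 5.22, inside the GMP-Control range, and K1359 had 5.12. With both arrays out, a choice made after seeing the data, Grb10 was -0.93 in GMP (adjusted p = 0.890), the Peg3 probe set was 0.15 and Plagl1 was 0.78 (both with an adjusted p of 1.0). As these arrays held the highest GMP-Dot levels in each case, leaving them out lowers the GMP-Dot mean. No conclusion is drawn from that fit. The part of stromal RNA in the values of these arrays was not tested.

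The effects of Dot1l loss in the cell types were also compared with each other. None of the 9 genes was called in that difference, against 0.033% of all genes. It was -1.17 ± 0.56 for Cdkn1c (adjusted p = 0.363 by limma), -1.49 ± 0.57 for Mest (adjusted p = 0.314) and -0.64 ± 1.16 for Plagl1 (adjusted p = 0.764). A difference between LSK and GMP in the response of these genes is therefore not shown. For Plagl1 the interval ran from -3.07 to 1.78.

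Between Dot1l-deleted cells, none of the 9 genes was called, against 0.143% of all genes. Ndn was 5.0, 5.11, 4.41 and 4.45 in GMP-Dot and 5.15 at the lowest in LSK-Dot, so these groups did not overlap, as for 2.03% of all genes (-1.90 ± 0.59, adjusted p = 0.262 by limma). All 8 probe sets of Ndn were lower in GMP-Dot than in LSK-Dot. Of these, 1415923_at, 1438978_x_at, 1438939_x_at and 1456575_at were above background on 0 arrays of either group. They differed only by -0.14 to -0.25. Plagl1 was higher in GMP-Dot by 2.62 ± 0.85 (adjusted p = 0.295) and Grb10 was lower, at -1.54 ± 0.60 (adjusted p = 0.524). With GMP-Dot arrays K1190 and K1272 out, a choice made after seeing the data, Grb10 was at -3.00 (adjusted p = 0.0317 by limma). It was then called, as were 47 of all 18194 genes. These arrays held its highest GMP-Dot levels, so leaving them out lowers its mean there, and no conclusion is drawn from that call.

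All 36 probe sets were tested among those of the whole array. Between control cell types 8 of them were called, against 9.59% of all, and they belonged to 5 genes: Peg3, Plagl1, Meg3, Grb10 and Ndn. The count was 3 without LSK-Control K1601 or GMP-Control K1603 and 15 without LSK-Dot K1272. Calls over all genes moved the same way, to 1111, 1212 and 5531 in these fits, against 2180 with all arrays. The groups did not overlap for 9 of the 36, against 12.9% of all probe sets. In LSK after loss of Dot1l, 1 of the 36 had groups without overlap, against 0.255% of all probe sets. In GMP after loss of Dot1l, 1 of the 36 did, the dim Meg3 probe set 1429256_at, against 4.41% of all. Between Dot1l-deleted cell types the share over all probe sets was 1.72%, and here 4 probe sets of Ndn and 1 of Meg3 had no overlap.

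Meg3 is a long noncoding RNA of the Dlk1 domain, counted among the markers of long-term stem cells. Its representative, 1426758_s_at, had means of 5.96 ± 0.20 (SD, n = 6) in LSK-Control, 6.04 ± 0.64 (n = 6) in LSK-Dot, 6.33 ± 0.58 (n = 5) in GMP-Control and 6.05 ± 0.44 (n = 4) in GMP-Dot, and the groups overlapped. Probe set 1439380_x_at went another way. It ranged from 5.77 to 7.90 in LSK-Control with a median of 6.79, and from 5.24 to 5.74 in LSK-Dot with a median of 5.47, without overlap. The fold change was -1.36 ± 0.35 (adjusted p = 0.332 by limma). In GMP-Control it was 6.06, 5.05, 5.90, 5.71 and 5.17, lower than in LSK-Control by limma at -1.25 ± 0.37 (adjusted p = 0.0381). In GMP-Dot it was 6.67, 7.38, 5.80 and 6.13, and the difference between the Dot1l effects was 2.27 ± 0.53 (adjusted p = 0.162). Its correlation with the representative over 21 arrays was -0.03, while the other 9 probe sets correlated at 0.52 to 0.87. The suffix _x_at marks probes that may also match other transcripts, and the representatives of Plagl1 and Ndn carry it too. Meg3 1429256_at was called the opposite way between control cell types, at 0.55 ± 0.16 (adjusted p = 0.0348), with levels below background on every array. The call of 1439380_x_at was lost in 8 of the 11 fits that left out 1 LSK-Control or GMP-Control array (adjusted p up to 0.0761), and that of 1429256_at in 6 (up to 0.0928).

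The probe sets of Ndn fell into sets that disagreed. The representative and 1455792_x_at correlated at 0.89 over 21 arrays and were highest on LSK-Control K1602, at 8.44 and 8.39. Probe sets 1435382_at and 1435383_x_at were high on 4 of 6 LSK-Control arrays. The first of them was 7.42, 7.35, 7.34, 4.17, 7.81 and 3.88 on K1601, K1602, K1603, K1604, K1581 and K1553. In GMP-Control it was 5.19, 4.59, 4.40, 4.31 and 4.03 (-1.82, adjusted p = 0.0705), while 1435383_x_at was called lower in GMP (-2.27 ± 0.65, adjusted p = 0.0341). That call was lost in 8 of the same 11 fits, with adjusted p up to 0.0825. Probe set 1415923_at was high on 3 LSK-Control arrays alone, at 6.44 on K1601, 6.78 on K1603 and 7.29 on K1581, and 3.89 or lower on the other 18 (-1.91 ± 0.66 in LSK-Dot, adjusted p = 0.713).

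Markers of mature neutrophils (8 measured) averaged 9.90, 8.89, 9.20, 7.51, 11.8 and 7.53 on the LSK-Control arrays in the order given for Ndn. The arrays high for 1435382_at were those high for neutrophil markers, and all 8 markers were above background in the LSK-Control means. In GMP-Control the neutrophil average was 7.73 to 8.12 with lower Ndn, and in LSK-Dot it was 5.80 to 7.67 while this Ndn probe set lay between 4.94 and 7.40. The part of neutrophil RNA in the LSK-Control values was not tested.

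**Figure D3:**
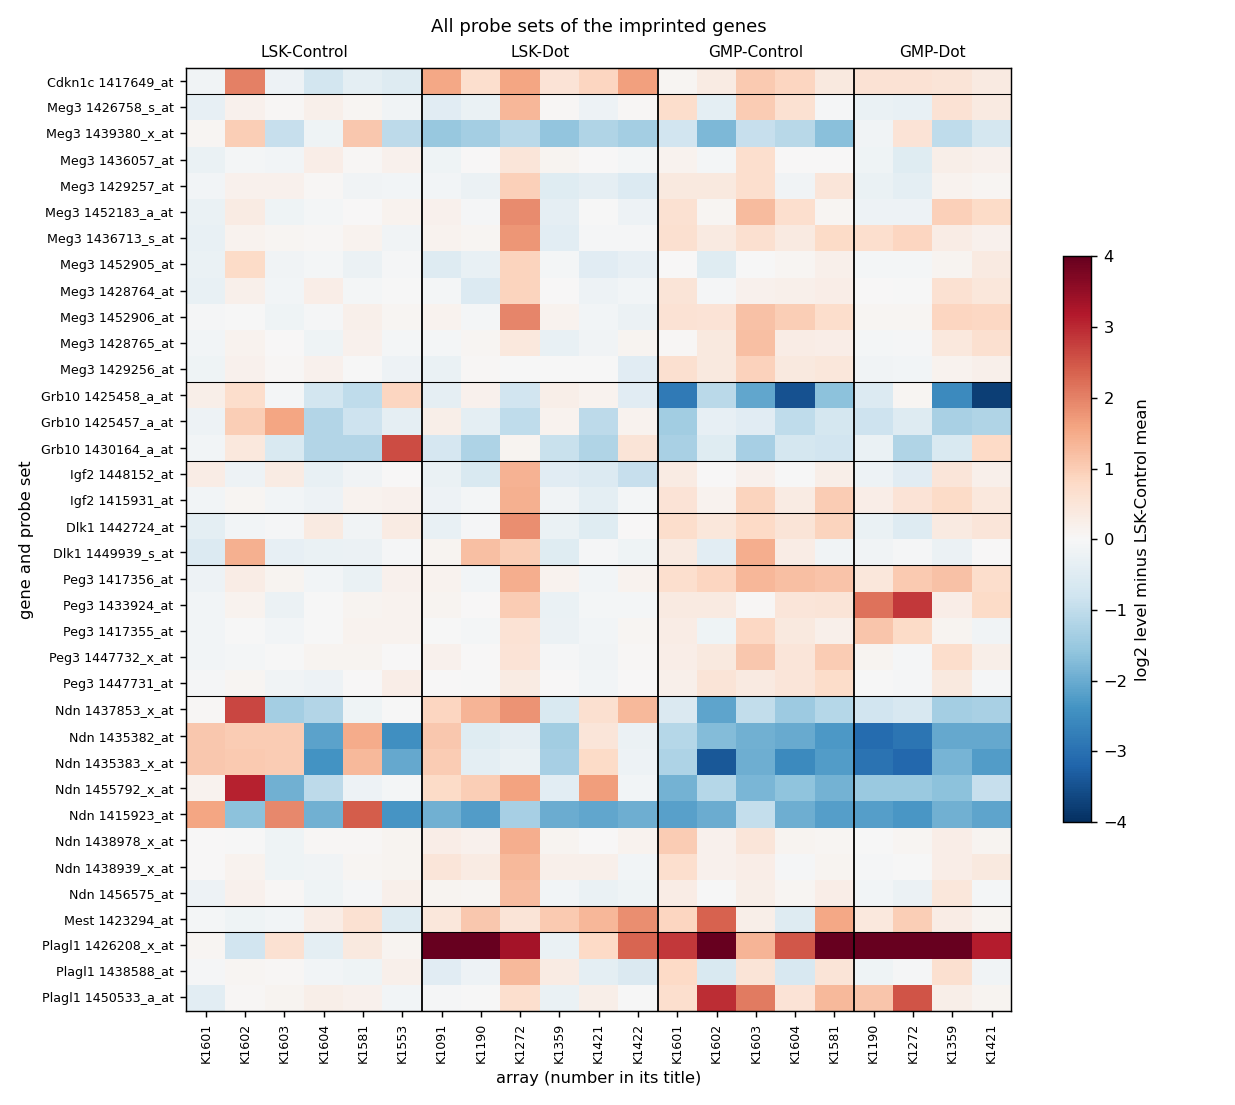
Log2 level of each of the 36 probe sets on each of the 21 arrays, minus its LSK-Control mean (red higher, blue lower, colours end at 4 units either way). The Meg3 probe set 1439380_x_at is lower across LSK-Dot, the Ndn probe sets divide within LSK-Control, and LSK-Dot K1272 is raised in most dim rows.

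**Figure D4:**
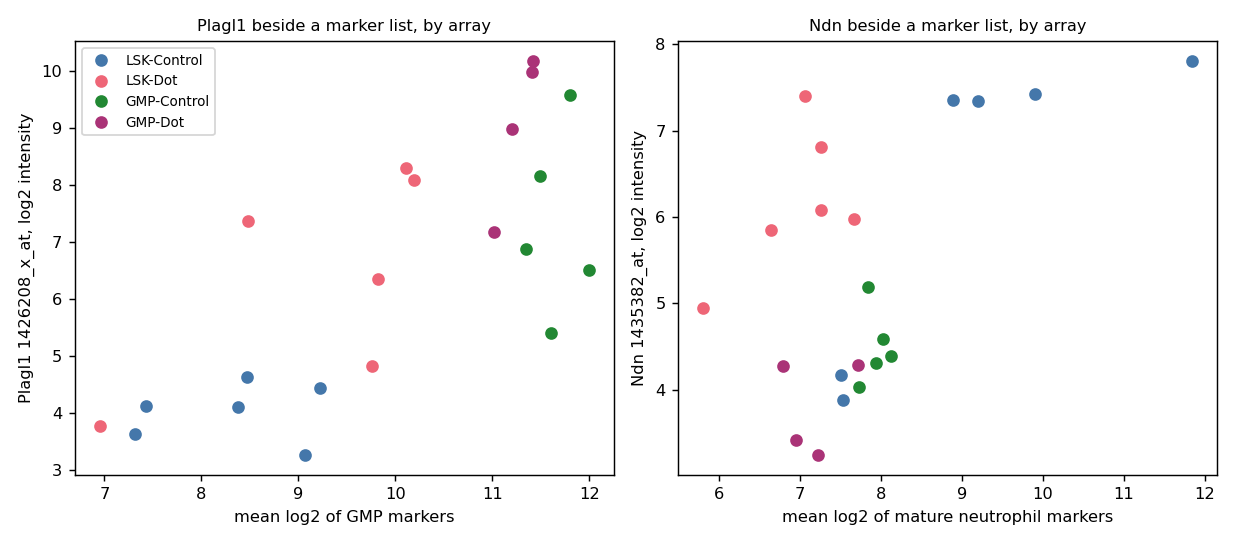
Each array's level of Plagl1 against its mean of 10 GMP markers (left), and of the Ndn probe set 1435382_at against its mean of 8 mature neutrophil markers (right), in log2 units and coloured by group. LSK-Dot K1359 has the lowest GMP markers, at 6.95, and the lowest Plagl1 of its group, at 3.77. K1421, next lowest for Plagl1 in that group, has GMP markers at 9.75. The 4 LSK-Control arrays with neutrophil means from 8.89 to 11.8 have the high Ndn values.

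Other imprinted genes were taken from a list of 73, of which 61 were measured. Between control cell types 5 were called. Ppp1r9a, a neural scaffold protein, was lower in GMP (-1.54 ± 0.35, adjusted p = 0.00857 by limma), as was Airn, the noncoding RNA that silences Igf2r (-0.72 ± 0.20, adjusted p = 0.0268). Calcr (0.85 ± 0.22), Slc38a4 (0.73 ± 0.23) and Tfpi2 (0.66 ± 0.21) were higher, and none of these 3 was above background on any array. The median of the list was 0.26, and 12.0% of all genes were called. After loss of Dot1l none of the 61 was called in LSK or in GMP.

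The neighbours of the 9 genes within their imprinted domains were followed by name. Beside Cdkn1c, the antisense RNA Kcnq1ot1 had means of 8.48 in LSK-Control, 7.74 in LSK-Dot, 6.68 in GMP-Control and 7.77 in GMP-Dot. Cd81, a tetraspanin, was high throughout, at 11.85, 11.73, 11.45 and 11.30 in the same order. Beside Meg3, the small nucleolar RNA host Rian was 5.37 in LSK-Control and 3.84 in GMP-Control, and Mirg was 4.72 and 5.24. Beside Ndn, the ubiquitin ligase Ube3a was 9.06 in LSK-Control, 8.28 in LSK-Dot, 6.99 in GMP-Control and 9.29 in GMP-Dot, and Magel2 and Mkrn3 were dim. Beside Mest, Copg2, a coat protein of vesicles, was 7.05 and 7.96 in LSK-Control and LSK-Dot. Phactr2, next to Plagl1, was 7.36 in LSK-Control and 6.33 in GMP-Control, while Plagl1 itself was higher in GMP-Control. None of these neighbours was called in any comparison.

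Of 29 measured genes of the machinery that sets and keeps imprints, 10 were called lower in control GMP, 1 was called higher and 18 did not pass, where 12.0% of all genes were called. Their median was -1.18, against 0.29 over all genes. The mean level of the 29 was lowest on LSK-Dot K1272 (6.72), GMP-Control K1601 (6.96) and GMP-Control K1603 (7.11), which also had the lowest upper quartiles of all arrays, 6.18, 6.20 and 6.19. The part of array quality in these calls was not tested. The de novo DNA methyltransferases Dnmt3a (-1.45 ± 0.41, adjusted p = 0.0292 by limma) and Dnmt3b (-2.28 ± 0.66, adjusted p = 0.0327) were among them. Ctcf fell by 2.27, the cohesin subunit Smc1a by 2.14 and the heterochromatin protein Cbx5 by 1.99. Arid4a, which with Arid4b bears on the Snrpn imprint, fell by 2.47. The others were Arid4b, Ehmt1, Suz12 and Tet1, and Dppa3 was the gene called higher. The maintenance methyltransferase Dnmt1 was high in all groups, from 11.77 in GMP-Control to 12.09 in LSK-Dot. Zfp57, whose hexamer is marked in the sequences, was above background on 3 of 21 arrays. After loss of Dot1l none of the 29 was called in LSK, and Cbx5 was called higher in GMP (2.11 ± 0.40, adjusted p = 0.0420).

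In IGF and insulin signalling, where Igf2 is a ligand and Grb10 an inhibitor, 2 of 22 measured genes were called between control cell types, a share no larger than the 12.0% of all genes. Both were lower in GMP: the transcription factor Foxo3 (-1.93 ± 0.48, adjusted p = 0.0153 by limma) and the ubiquitin ligase Nedd4 (-2.26 ± 0.66, adjusted p = 0.0332), which can bind Grb10. The receptor Igf1r had means of 8.57 in LSK-Control and 8.16 in GMP-Control. Igf2r, the imprinted receptor that clears Igf2, was above background on 7 of 21 arrays. Among 14 regulators of the G1 phase, beside which Cdkn1c acts, Rbl2 (-3.39 ± 0.54, adjusted p = 0.000661) and Ccnd2 (-0.47 ± 0.15, adjusted p = 0.0475) were called lower in GMP, a share close to that of all genes. Cdkn1b, the related inhibitor p27, was 8.85 in LSK-Control, 8.88 in LSK-Dot, 7.93 in GMP-Control and 7.04 in GMP-Dot and was not called. No gene of these lists was called after loss of Dot1l in LSK or in GMP.

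For each gene above background in at least 1 group, the genes with the most similar log2 levels over the 21 arrays were listed. Idh1 (Pearson r = 0.895), Ms4a6d and P4hb were closest to Plagl1. Aldh1a1 (0.865), Tmem140 and Vezf1 were closest to Grb10. Lrrtm2 (0.874), Nqo1 and 1500009L16Rik were closest to Ndn. Mcu (0.766), Pop5 and Abcb8 were closest to Cdkn1c, Gm9958 (0.764), Inpp5a and Gramd3 to Mest, and 2310043L19Rik (0.931), A230070E04Rik and Kcnk4 to Meg3. When group means were taken out, the closest were Hebp1 (0.836) for Plagl1, Ctsa (0.837) for Grb10, C920009B18Rik (0.859) for Ndn, Mcu (0.892) for Cdkn1c, Cd300lb (0.841) for Mest and Tssk5 (0.948) for Meg3. Within the set, deviations from group means were most alike for Igf2 and Dlk1 (0.793), Meg3 and Dlk1 (0.767), Cdkn1c and Ndn (0.759) and Dlk1 and Peg3 (0.745). LSK-Dot K1272 was the highest array of its group for Igf2, Dlk1, Meg3 and Peg3, and LSK-Control K1602 for Cdkn1c and Ndn. These are the closest of 18194 genes over arrays that share groups and processing, and no p is given.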

How the data were processed

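Biotin cRNA of the sorted cells was hybridised to Affymetrix mouse arrays, as the labels' protocols state. The deposited table holds intensities on a linear scale for every probe set, and RMA is the tool in the submitters' processing notes. The log2 was taken with no pseudocount. The platform annotation gave 34958 probe sets 1 symbol, which made 18194 genes, each by its brightest probe set. Probe sets with several symbols (932) or none (9211) named no gene.

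limma 3.58.1 in R 4.3.3 fitted 4 group means over all 21 arrays, and the same fit was run over all probe sets. It was tested on simulated data. Every probe set of the 9 genes was followed, with neighbours, called genes of the lists and the 3 genes most like each expressed member. Members and lists were chosen with earlier results of these data known. In the main fit, fold changes compare the same probe set between groups. Levels of different probe sets were set against each other in choosing the brightest and in the background range. Being above or below background is therefore approximate. The alternatives covered normalization, filters, probe set choice, variance, weights, covariates, blocks and left-out arrays.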

Additional observations from a re-analysis of the deposited data

Results flagged for a closer look

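Within groups of 4 to 6 arrays, the gap of the highest or lowest array to the nearest other was divided by the group's range. An array was listed when this ratio exceeded Dixon's critical value. This was so for 6 of 36 sets of gene and group, where chance gives about 1 in 20. In LSK-Dot, array K1272 was the highest for Igf2 (5.96), Meg3 (7.28), Dlk1 (6.29) and Peg3 (5.60). This array also had the highest background limit, 5.86, so Igf2 and Dlk1 lay above it by little and Peg3 lay below it. In LSK-Control, array K1602 was the highest for Cdkn1c (6.19) and for Ndn (8.44). For none of the 9 genes was the difference between the Dot1l effects in LSK and GMP called.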

How the results depend on the processing

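Besides the fit reported, 38 alternative fits were run. Among 30 fold changes under them, 976 of 1064 values kept direction and side of the threshold, 62 lost the call, 19 gained it and 7 reversed. With array quality weights, whose estimate stopped before converging, 4 of the 9 genes were called in LSK, 1 in GMP, 1 in the difference, 5 between control cell types and 1 between deleted cell types, with 5, 14, 14, 17 and 13 probe sets. Over all genes these weights called 663, 3778, 2416, 7054 and 520 in the same order. Between control cell types 1 gene was called with the _s_at, _x_at and _a_at probe sets out, and 1 with the upper quartile as covariate. Probe sets called there were 4 after quantile normalization, 4 above the median level only and 2 with the upper quartile. K numbers occur in both cell types, and the labels do not say whether they are animals. Correlations of same-numbered arrays' deviations ran from -0.40 to 0.27. They cannot decide whether the arrays are paired, since array quality also enters the deviations. With K as a fixed replicate block 1 gene and 2 probe sets were called (Grb10 at -2.06, adjusted p = 0.107, and Peg3 at 1.08, adjusted p = 0.0826, no longer were), and with a random replicate block 3 probe sets. With GMP-Dot K1190 and K1272 both out, an unplanned choice, 1 gene and 1 probe set were called between deleted cell types. Over all genes 47 were called there. In GMP, Grb10 then reversed to -0.93. Leaving out each array in turn gave 0 to 1 genes in LSK, 3 to 4 between control cell types and 0 in the other 3 comparisons. Probe sets then ranged from 0 to 1 in LSK, 0 to 1 in GMP, 0 to 1 between deleted cell types and 3 to 15 between control cell types. The lowest came without LSK-Control K1601 or GMP-Control K1603, where 1111 and 1212 of all genes were called. The highest came without LSK-Dot K1272, where 5531 of all genes were called. Probe sets called were 4 without LSK-Control K1581, and 5 without GMP-Control K1602, K1604 or K1581. In LSK the 1 gene was Cdkn1c, without LSK-Control K1602, and in GMP the 1 probe set, without GMP-Dot K1359, was Peg3 1433924_at. Reversed values were Ndn in LSK at -0.15 (those probe sets out) and -0.0653 (highest variance), Plagl1 in GMP at -0.0426 (those probe sets out), and Grb10 in GMP at -0.0124 (upper quartile). With arrays left out, Grb10 ran from -0.36 to 0.00838 in LSK (without LSK-Control K1553) and from -0.0633 (without GMP-Dot K1272) to 1.21 in GMP. Where no construction of the alternative shows it, the cause was not tested. Filters on dim genes dropped Peg3 in some fits. Signal near background limits Igf2, Dlk1, Peg3 and Cdkn1c.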
